A study of Danio rerio with 20 samples.

Results

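The genes described here encode the enzymes of glycolysis, of the pyruvate dehydrogenase step and of the tricarboxylic acid (TCA) cycle in isolated zebrafish cardiomyocytes. They were chosen by name, as a list of 46 gene symbols, and 43 of these occurred among the 14781 genes of the deposited matrix. The symbols pdk2a, ogdhb and suclg2 were not analysed here. The symbol dld is that of a Notch ligand in zebrafish, while the dihydrolipoamide dehydrogenase of the listed complexes carries the symbol dldh, so dld is given apart and is left out of every count of enzymes. That left 42 enzymes, of which 41 passed the filter on low values (at least 1 CPM, a count scaled to a fixed total per library, in 2 or more libraries): 24 of glycolysis, from hexokinase to lactate dehydrogenase, and 17 of pyruvate dehydrogenase and the TCA cycle. The enzyme that did not pass was pdha1b, with 0 to 11 reads per library. The group of 17 also holds the kinase pdk2b and the cytosolic malate dehydrogenases mdh1aa and mdh1ab.

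The series asks about cardiomyocyte proliferation in zebrafish that carry mutations in both kit receptor genes. Bulk libraries, made with an mRNA kit, came from cardiomyocytes isolated from pooled ventricles, 8 per library, of fish aged 4 to 6 months. The 10 groups, with 2 libraries each, were wild type and kita(w34b2);kitb(sa15356) double mutants, either untouched or 2, 5, 7 and 14 days after resection of about 20% of the ventricle at its apex (days post injury, dpi). The mutated kit receptor transcripts were scarce in both genotypes, with 6 to 29 reads of kita and 0 to 8 reads of kitb per library, and their level does not check the labels, since a mutant allele can still be transcribed. The mutation is present in the whole animal and not only in heart muscle, and the untouched mutants carry it as well.

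Glycolysis splits glucose into pyruvate in the cytosol, and lactate dehydrogenase interconverts pyruvate and lactate. The pyruvate dehydrogenase complex passes pyruvate into the mitochondrion's TCA cycle, which feeds the respiratory chain, and pyruvate dehydrogenase kinases switch the complex off. Adult heart muscle draws mostly on oxidative metabolism, and a turn towards glycolysis has been described in cardiomyocytes at the border of injured zebrafish hearts. Many of these enzymes have paralogous pairs in zebrafish, a remnant of the genome duplication in fish, and reads of such near relatives can be split uncertainly between them by the authors' counting.

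Levels are given as scaled CPM, the deposited CPM divided by a factor per library (0.881 to 1.18), with the values of both libraries of a group. Differences are log2 ± SE from a limma fit over all 10914 genes tested. A gene is called changed at a Benjamini-Hochberg adjusted p under 0.05. Reads per library numbered 14604835 to 31689067. The libraries of the mutant pairs untouched, at 2 dpi and at 7 dpi were nearly identical to each other, with a mean chi-square per gene of 1.98 to 3.84 against 14.6 to 48.9 in the other 7 groups. Read sampling alone gives about 1. The labels do not say whether these pairs are separate preparations, so each count of the listed enzymes called is also given with the 3 pairs averaged into 1 sample each. P-values measure only the spread between these libraries, which may be technical. The mutant 2 dpi libraries were labelled lane 7 and all others lane 8, and 4 sample numbers of lane 8 were used by both genotypes. The labels name no sequencing run. Genotype and run may therefore coincide, and their effects cannot be separated here. Lane and group coincide for the mutant 2 dpi libraries, so lane cannot be separated in any comparison that uses them, also within mutants.

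All 10 cardiomyocyte markers found in the matrix, of 15 listed, were present in every library, but their summed level differed between groups. It was 70238 to 75790.3 scaled CPM in untouched wild type, 35642 to 51316 at 2 dpi, 47703 to 59141 at 5 dpi, 43191 to 44967 at 7 dpi and 60002 to 70038 at 14 dpi. In mutants it was 71083 to 72361 untouched, 31810.0 to 32271 at 2 dpi, 67587 to 72699.7 at 5 dpi, 59743 to 60940.3 at 7 dpi and 46449 to 58079 at 14 dpi. The 13 fibroblast and epicardium markers moved the other way after injury, from 5408 to 5640.4 untouched to 18927 to 23964 at 2 dpi in wild type and from 5248 to 5276 to 26747 to 27557 in mutants. The 9 neutrophil markers, with npsn at 0 in some libraries, summed to 805 to 806 in untouched mutants against 31.3 to 35.9 in untouched wild type. In bulk RNA, fewer cells of a type and less RNA per cell cannot be told apart. Beside the counts of the listed enzymes a second one is therefore given, added after the data were seen, in which each library was rescaled to its 10 cardiomyocyte markers. That rescaling itself moved the median log2 difference of all genes by -0.50 to 0.68, depending on the comparison.

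The medians of both enzyme groups were below untouched at 2 dpi in each genotype. Taken relative to untouched wild type on the log2 scale, the median over the pyruvate dehydrogenase and TCA enzymes in the wild-type libraries was -0.94 and -0.56 at 2 dpi, -0.66 and -0.57 at 5 dpi, -0.92 and -0.75 at 7 dpi and -0.22 and -0.41 at 14 dpi. In mutants it was -0.12 and -0.13 untouched, -1.50 and -1.48 at 2 dpi, -0.22 and -0.21 at 5 dpi, -0.31 and -0.31 at 7 dpi and -0.60 and -0.70 at 14 dpi, so it was lower again in both 14 dpi libraries than at 5 or 7 dpi. The glycolysis median in wild type was -0.59 and -0.25 at 2 dpi, -0.47 and -0.23 at 5 dpi, -0.50 and -0.48 at 7 dpi and 0.05 and -0.18 at 14 dpi. In mutants it was -0.12 and -0.14 untouched, -0.61 and -0.60 at 2 dpi, -0.04 and 0.04 at 5 dpi, -0.16 and -0.18 at 7 dpi and -0.24 and -0.76 at 14 dpi, and mutant 14 dpi library 2 had the lowest glycolysis median of all 20 libraries. In the 2 dpi mutants the median over the cardiomyocyte markers was -1.29 and -1.21. Glycolysis took 3.22 and 3.33% of the reads in the libraries of untouched wild type and 3.36 and 3.37% in untouched mutants. The share was lowest in mutants at 2 dpi (2.13 and 2.08%). It was 4.76 and 3.90% in wild type at 14 dpi and 4.06 and 3.99% in mutants at 5 dpi. A share of reads is weighted by the genes with the most reads. gapdh had 121035 to 418418 reads per library, and aldoaa, the next, 52341 to 129771. The glycolysis median of wild type at 14 dpi, which weighs genes equally, was 0.05 and -0.18, as given above. The pyruvate dehydrogenase and TCA genes took 1.5 and 1.59% in untouched wild type, 1.62 and 1.60% in untouched mutants and 0.726 and 0.721% in mutants at 2 dpi.

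**Figure D1:**
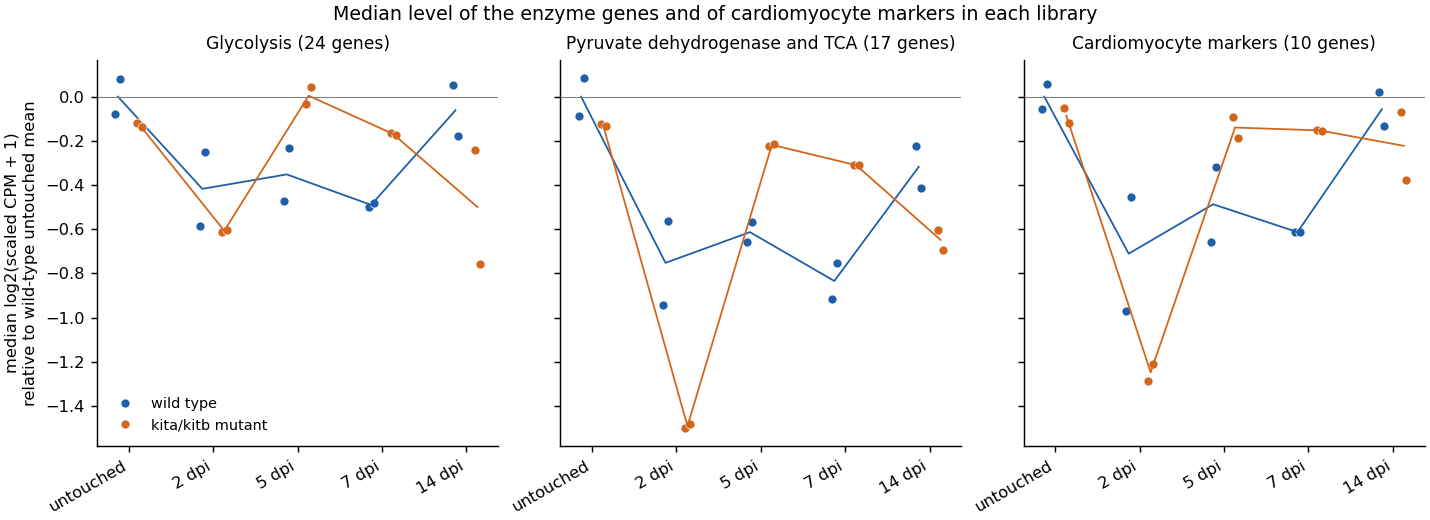
Median log2 level of the 24 glycolysis enzymes, the 17 pyruvate dehydrogenase and TCA enzymes and the 10 cardiomyocyte markers in each library, relative to the mean of untouched wild type, by days post injury. Points are libraries and lines join group means; both mutant libraries of 2 dpi are the lowest of all in the TCA panel, at -1.50 and -1.48.

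In wild type most pyruvate dehydrogenase and TCA enzymes fell together after injury. Glycolysis divided into a few genes that rose and many that fell. At 2 dpi 15 of 17 pyruvate dehydrogenase and TCA enzymes fell and 0 rose, with a median of -0.75, and of 24 glycolysis enzymes 14 fell and 3 rose, with a median of -0.41. Of all genes tested, 51.6% were called at this time (26.4% higher, 25.2% lower), with a median of 0.00. At 5 dpi the pyruvate dehydrogenase and TCA counts were 14 lower and 0 higher and those of glycolysis 9 and 2. Of all genes, 32.8% were called at 5 dpi (17.0% lower). At 7 dpi the enzyme counts were 15 and 0, and 15 and 2, where 34.8% of all genes were called (17.3% lower). At all of these times 14 TCA or pyruvate dehydrogenase enzymes and 8 glycolysis enzymes (aldoab, hk1, ldhba, pfkma, pfkmb, pgam1b, pgam2 and pgk1) were lower, and eno1b and hk2 were higher. These comparisons share the untouched libraries, and the share of all genes called at all of these times was not counted. In the same libraries the summed cardiomyocyte markers were lower than untouched, as given above. Of the 10 markers 8 were called lower and 1 higher at 2 dpi, 6 and 1 at 5 dpi and 7 and 0 at 7 dpi. The summed fibroblast and epicardium markers were higher than untouched, at 2 dpi as given above. They were 19108 to 20039 scaled CPM at 5 dpi and 20631 to 25658 at 7 dpi.

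Of the hexokinases, which phosphorylate glucose as it enters the pathway, hk2 rose and hk1 fell in wild type. hk2 had 17.1 and 11.6 scaled CPM in the libraries of untouched wild type, 37.4 and 21.3 at 2 dpi, 31.6 and 24.9 at 5 dpi, 32 and 25.1 at 7 dpi and 17.3 and 25.2 at 14 dpi. The libraries of 2, 5 and 7 dpi all lay above the untouched ones, with overlap at 14 dpi. The difference was log2 0.95 ± 0.27 (adjusted p = 0.0077) at 2 dpi, log2 0.95 ± 0.27 (adjusted p = 0.014) at 5 dpi and log2 0.96 ± 0.27 (adjusted p = 0.011) at 7 dpi. Each of these calls rested on single libraries: the one of 2 dpi ended without wild-type untouched library 2 (log2 0.69) or wild-type 2 dpi library 1 (log2 0.56), the one of 5 dpi without wild-type untouched library 2 (log2 0.69) or wild-type 5 dpi library 1 (log2 0.78), and the one of 7 dpi without wild-type untouched library 2 (log2 0.70) or wild-type 7 dpi library 1 (log2 0.79). hk1 had 606 and 762 untouched and 369.5 and 452 at 2 dpi, which did not overlap (log2 -0.73 ± 0.17, adjusted p = 0.0015).

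The muscle-type phosphofructokinase pfkmb, whose enzyme commits sugar to glycolysis, fell at every time in wild type. It had 844 and 965 scaled CPM untouched, 338 and 443 at 2 dpi, 523 and 643 at 5 dpi, 407 and 451 at 7 dpi and 627 and 482 at 14 dpi. Every injured library was below both untouched ones. The change was log2 -1.22 ± 0.15 (adjusted p = 8.3e-06) at 2 dpi and log2 -1.07 ± 0.15 (adjusted p = 5.2e-05) at 7 dpi. It was log2 -0.64 ± 0.15 (adjusted p = 0.0050) at 5 dpi and log2 -0.71 ± 0.15 (adjusted p = 0.0030) at 14 dpi, and the call of 5 dpi ended without wild-type untouched library 2 (log2 -0.54) or wild-type 5 dpi library 1 (log2 -0.49) and that of 14 dpi without wild-type 14 dpi library 2 (log2 -0.53). Its paralogue pfkma had 15.2 and 14.9 untouched and 4.19 and 4.94 at 2 dpi, also apart (log2 -1.53 ± 0.28, adjusted p = 0.00025).

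In the later steps of glycolysis, eno1b and gapdhs rose at 2 dpi and pgam2, tpi1a and pkmb fell. Enolase makes phosphoenolpyruvate, and eno1b had 4.35 and 4.58 scaled CPM untouched and 14.1 and 9.36 at 2 dpi (log2 1.19 ± 0.18, adjusted p = 4.3e-05). gapdhs, a paralogue of glyceraldehyde-3-phosphate dehydrogenase, had 679 and 759 untouched and 1203 and 1230.3 at 2 dpi (log2 0.76 ± 0.16, adjusted p = 0.0011). Both genes had their 2 dpi libraries above the untouched ones. At 7 dpi eno1b stood at 8.92 and 8.53 (log2 0.83 ± 0.18, adjusted p = 0.0017), and at 5 dpi at 6.43 and 8.14 (log2 0.59 ± 0.18, adjusted p = 0.018), a call that ended without wild-type untouched library 1 (log2 0.56), wild-type untouched library 2 (log2 0.62) or wild-type 5 dpi library 2 (log2 0.44). Among the genes that fell, the muscle phosphoglycerate mutase pgam2 went from 784 and 912 to 326 and 472 at 2 dpi (log2 -1.11 ± 0.18, adjusted p = 7.9e-05) and 319.7 and 441 at 7 dpi (log2 -1.17 ± 0.18, adjusted p = 8.3e-05). The pyruvate kinase pkmb, which ends glycolysis, went from 122 and 146 to 66.3 and 86.9 at 2 dpi (log2 -0.81 ± 0.14, adjusted p = 0.00023). The triosephosphate isomerase tpi1a went from 8.19 and 9.62 to 4.24 and 4.49 at 7 dpi (log2 -0.88 ± 0.16, adjusted p = 0.00055). In these 3 genes no injured library named here reached the untouched level. The mutase pgam1b, by contrast, moved by log2 -0.47 ± 0.11 (adjusted p = 0.0049) at 5 dpi, and its call ended without wild-type untouched library 2 (log2 -0.37). hk1 at 5 dpi (log2 -0.68 ± 0.17, adjusted p = 0.0050) lost its call without wild-type untouched library 2 (log2 -0.52) or wild-type 5 dpi library 1 (log2 -0.57).

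In the pyruvate dehydrogenase and TCA group, mdh1ab and idh3b had the largest falls of the 17 enzymes in wild type at 2 dpi. idh3b, the beta subunit of the NAD-dependent isocitrate dehydrogenase, had 413 and 495 scaled CPM untouched, 183 and 250.4 at 2 dpi, 244 and 266 at 5 dpi, 174 and 225 at 7 dpi and 269 and 253 at 14 dpi. All 8 injured libraries were below both untouched ones. The change was log2 -1.07 ± 0.14 (adjusted p = 9.9e-06) at 2 dpi, log2 -0.82 ± 0.14 (adjusted p = 0.00036) at 5 dpi and log2 -1.19 ± 0.14 (adjusted p = 7.5e-06) at 7 dpi, and at 14 dpi it was log2 -0.79 ± 0.14 (adjusted p = 0.00061). mdh1ab, a cytosolic malate dehydrogenase of the malate-aspartate shuttle, had 329.7 and 339.9 untouched, 121 and 191 at 2 dpi (log2 -1.13 ± 0.15, adjusted p = 1.5e-05) and 171 and 166 at 5 dpi (log2 -0.98 ± 0.15, adjusted p = 0.00019). Its injured libraries were again the lower ones.

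The 2-oxoglutarate dehydrogenase subunits, pyruvate dehydrogenase and the catalytic idh3a moved with them. ogdha changed by log2 -0.88 ± 0.13 (adjusted p = 3.8e-05) at 2 dpi, and dlst, its succinyltransferase partner, by log2 -0.93 ± 0.13 (adjusted p = 3.6e-05) at 7 dpi. idh3a changed by log2 -0.93 ± 0.12 (adjusted p = 1.7e-05) at 7 dpi. pdha1a, the E1 alpha subunit of pyruvate dehydrogenase, had 1013 and 1109 untouched and 597 and 689.5 at 5 dpi (log2 -0.72 ± 0.12, adjusted p = 0.00044), without overlap. The enzymes of this group that did not pass were idh3g and mdh2 at 2 dpi, those 2 and pdk2b at 5 dpi, and idh3g and pdk2b at 7 dpi.

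With the near-identical mutant pairs averaged, the fit called 25 enzymes lower and 3 higher at 2 dpi (all genes 45.4%), 18 and 2 at 5 dpi (24.5%) and 24 and 2 at 7 dpi (27.8%). Scaled to the cardiomyocyte markers, it called 8 lower and 4 higher at 2 dpi (46.6% of all genes), 5 and 2 at 5 dpi (17.0%) and 8 and 4 at 7 dpi (42.3%). On that scale idh3b was still lower at 2 dpi (log2 -0.60, adjusted p = 0.0066), as were mdh1ab (-0.66, adjusted p = 0.0029) and pfkmb (-0.75, adjusted p = 0.00040). eno1b (1.60) and gapdhs (1.23) were still higher. The count at 5 dpi also depended on single libraries, being 10 without wild-type untouched library 2 and 13 without wild-type 5 dpi library 1, against 25 with all libraries.

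**Figure D2:**
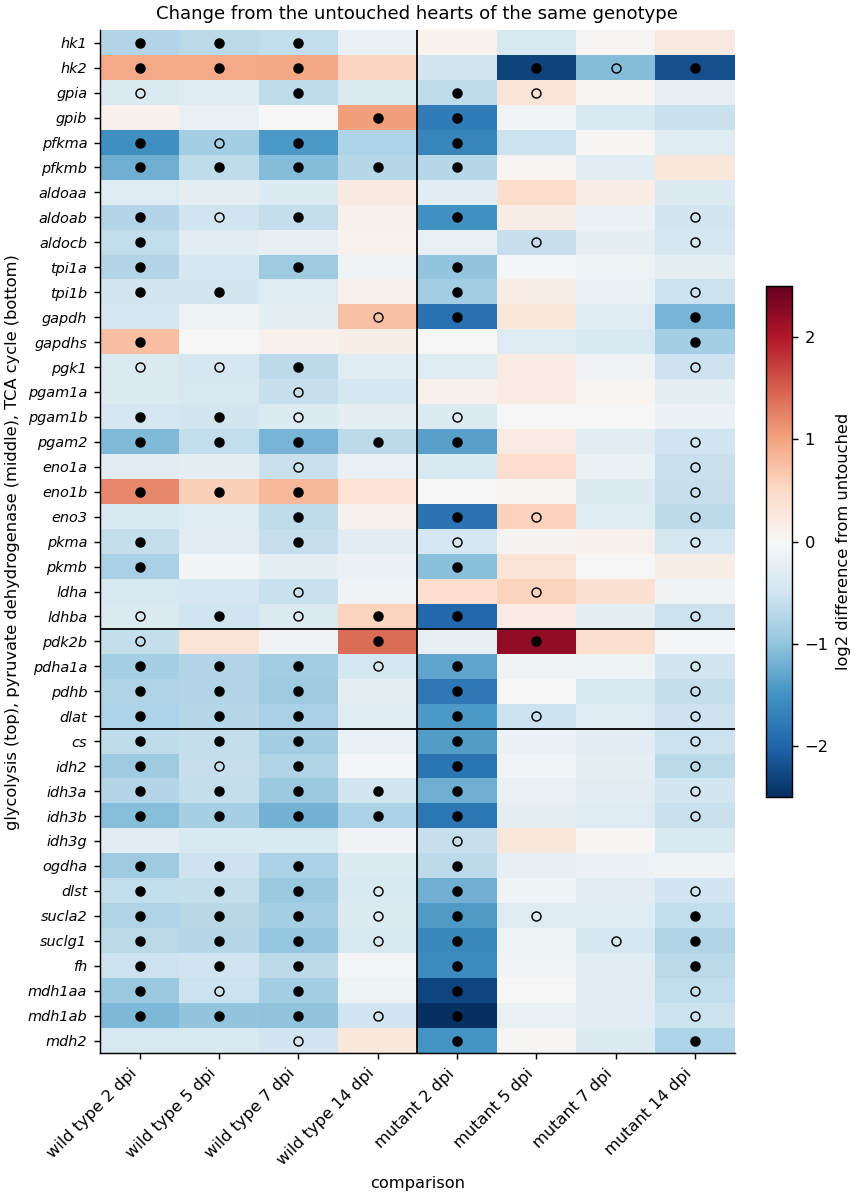
Log2 difference from untouched of the same genotype for 41 enzymes (rows) at 2, 5, 7 and 14 dpi in wild type and in mutants (columns), by colour. Dots mark an adjusted p under 0.05, filled where the call also held with the near-identical pairs averaged and open where it did not; blue dominates the TCA rows in wild type from 2 to 7 dpi and in mutants at 2 and 14 dpi.

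By 14 dpi fewer wild-type enzymes differed from untouched, and some of glycolysis stood above it. Against untouched, 3 glycolysis enzymes were higher and 2 lower, and 1 of the pyruvate dehydrogenase and TCA enzymes was higher and 7 lower, with medians of -0.08 and -0.33 (24.9% of all genes called). Against 7 dpi, 7 glycolysis and 15 TCA or pyruvate dehydrogenase enzymes rose and none fell, with medians of 0.40 and 0.54 (17.8% of all genes called, 8.96% higher and 8.81% lower). The count against 7 dpi was 8 without wild-type 7 dpi library 1 and 3 without wild-type 14 dpi library 1. The count against untouched was 5 without wild-type untouched library 2 or without wild-type 14 dpi library 2. With the pairs averaged, 3 enzymes were higher and 4 lower than untouched (16.9% of all genes) and 15 were higher than at 7 dpi (8.92%). Scaled to cardiomyocyte markers, 4 were higher and 6 lower than untouched (11.2% of all genes). Against 7 dpi, 2 were higher and 5 lower on this scale (44.7% of all genes). Of glycolysis 1 was higher and 5 lower, and of the pyruvate dehydrogenase and TCA enzymes 1 was higher and 0 lower. The medians of these 2 groups were log2 -0.18 and -0.04, where the median of all genes was -0.51.

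The kinase pdk2b, which inactivates pyruvate dehydrogenase, rose late in wild type. It had 288 and 189 scaled CPM untouched, 168 and 140.1 at 2 dpi, 187 and 257 at 7 dpi and 737 and 517 at 14 dpi. The libraries of 14 dpi were above all of these, by log2 1.40 ± 0.23 (adjusted p = 0.00044) against untouched and by log2 1.49 ± 0.23 (adjusted p = 0.00075) against 7 dpi. ldhba, the lactate dehydrogenase B chain that is the heart form in mammals, had 1457 and 1562 untouched, 1134 and 1226 at 7 dpi and 2346 and 2125 at 14 dpi. Its 14 dpi libraries were the higher ones in both comparisons (log2 0.92 ± 0.13, adjusted p = 0.00039 against 7 dpi, and log2 0.57 ± 0.13, adjusted p = 0.0056 against untouched, a call that ended without wild-type 14 dpi library 1 (log2 0.49)). gpib, a glucose-6-phosphate isomerase, changed by log2 1.04 ± 0.25 (adjusted p = 0.0056) and gapdh by log2 0.72 ± 0.21 (adjusted p = 0.018) against untouched, and the call of gpib ended without wild-type untouched library 1 (log2 0.64) or wild-type 14 dpi library 1 (log2 0.81) and that of gapdh without wild-type untouched library 1 (log2 0.71), wild-type untouched library 2 (log2 0.73) or wild-type 14 dpi library 1 (log2 0.51). tpi1a (log2 0.80 ± 0.16, adjusted p = 0.0042) and citrate synthase cs (log2 0.70 ± 0.13, adjusted p = 0.0026) rose from 7 to 14 dpi, and the call of cs ended without wild-type 14 dpi library 1 (log2 0.58). pgam2 (log2 -0.66 ± 0.18, adjusted p = 0.012), idh3a (log2 -0.46 ± 0.12, adjusted p = 0.0099) and pdha1a (log2 -0.45 ± 0.12, adjusted p = 0.015) were below untouched, and each of these calls ended without wild-type untouched library 2 or wild-type 14 dpi library 2, with log2 values of -0.55 or -0.53, -0.43 or -0.38, and -0.38 or -0.34.

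In mutants nearly all pyruvate dehydrogenase and TCA enzymes fell at 2 dpi, and no enzyme rose. Of 17 pyruvate dehydrogenase and TCA enzymes 16 fell, all but pdk2b, with a median of -1.43, and of 24 glycolysis enzymes 14 fell, with a median of -0.55. Of all genes, 52.4% were called (24.9% lower), with a median of 0.02. The fit with the pairs averaged called 27 enzymes lower (29.2% of all genes called). The mutant 2 dpi libraries were those of lane 7, so time and lane cannot be told apart here. The summed cardiomyocyte markers were also lowest in this group, as given above. Scaled to those markers, 14 TCA or pyruvate dehydrogenase enzymes were lower and 1 higher, while glycolysis split into 7 lower and 11 higher (66.1% of all genes called). With CPM as deposited, 27 enzymes were lower and 4 higher.

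Among the pyruvate dehydrogenase and TCA group named here, the cytosolic malate dehydrogenases of the malate-aspartate shuttle fell most steeply. mdh1ab had 254 and 253 scaled CPM in untouched mutants and 40.6 and 42.9 at 2 dpi, and mdh1aa went from 1349.6 and 1376 to 287 and 267. Neither gene's libraries overlapped, with changes of log2 -2.57 ± 0.15 (adjusted p = 1.6e-09) and log2 -2.30 ± 0.16 (adjusted p = 8.8e-09). idh3b went from 397 and 392 to 114 and 111 (log2 -1.81 ± 0.14, adjusted p = 2.5e-08), and pdhb, the E1 beta subunit of pyruvate dehydrogenase, changed by log2 -1.79 ± 0.14 (adjusted p = 3.1e-08). In glycolysis ldhba went from 1142 and 1156 to 293 and 292 (log2 -1.97 ± 0.13, adjusted p = 7.0e-09), gapdh from 16779.7 and 16883 to 4830.4 and 4388 (log2 -1.87 ± 0.21, adjusted p = 1.3e-06) and the muscle enolase eno3 from 2269 and 2329 to 666 and 608 (log2 -1.85 ± 0.18, adjusted p = 4.2e-07). These groups did not overlap in any of the 3 genes. All of these falls were also called on the cardiomyocyte-marker scale, from log2 -1.79 for mdh1ab to -0.99 for pdhb. The call of the isocitrate dehydrogenase subunit idh3g (log2 -0.57 ± 0.20, adjusted p = 0.023) ended with the pairs averaged (adjusted p = 0.19) and without mutant untouched library 1 (log2 -0.54), mutant untouched library 2 (log2 -0.60) or mutant 2 dpi library 1 (log2 -0.43).

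At 5 and 7 dpi fewer mutant enzymes were called than at 2 dpi. At 5 dpi 3 glycolysis enzymes were higher and 2 lower, and 1 TCA or pyruvate dehydrogenase enzyme was higher and 2 lower (51.3% of all genes called, 26% higher), with medians of 0.16 and -0.11. With the pairs averaged, 1 was higher and 1 lower (33.4%), namely pdk2b and hk2. The count was also 4 without either library of mutants untouched or at 5 dpi, and on the cardiomyocyte-marker scale it was 7 higher and 1 lower (34.7% of all genes). At 7 dpi hk2 and suclg1 were lower and none was higher (14.6% of all genes called, 8.83% higher and 5.74% lower), and with the pairs averaged or on the cardiomyocyte-marker scale no enzyme was called (2.68% and 5.67% of all genes). That count of 2 was 0 without either mutant library of untouched or of 7 dpi, 1 without either mutant 2 dpi library and 5 without either wild-type 2 dpi library, and with CPM as deposited 1 enzyme was higher and 1 lower. The fit of mutants alone called 13 enzymes, all lower. In 15 of the 17 TCA and pyruvate dehydrogenase enzymes both 7 dpi libraries were below both untouched ones, although of the 17 only suclg1 was called. Both pairs are near-identical, so even small shifts can set them apart. The share of all genes that were apart in this way was not counted. suclg1, a subunit of succinyl-CoA ligase, differed by log2 -0.44 ± 0.13 (adjusted p = 0.037), with values of log2 -0.46 to -0.41 without 1 library.

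The level of hk2 was highest in untouched mutants and fell at 5, 7 and 14 dpi. It had 93.4 and 94.8 scaled CPM in untouched mutants, 68.0 and 69.1 at 2 dpi, 13.2 and 24.6 at 5 dpi, 43.5 and 44.8 at 7 dpi and 17.9 and 21.8 at 14 dpi. All 8 injured mutant libraries were below the untouched ones. The change was log2 -2.32 ± 0.27 (adjusted p = 4.0e-06) at 5 dpi and log2 -2.19 ± 0.27 (adjusted p = 1.5e-05) at 14 dpi. At 2 dpi it was log2 -0.45 ± 0.27 (adjusted p = 0.18). At 7 dpi it was log2 -1.07 ± 0.27 (adjusted p = 0.013) and ended without any of the 4 libraries compared (log2 -1.09 to -1.05). The summed neutrophil markers were also highest in untouched mutants, as given above. In mutants their sum was 80.3 to 83.1 scaled CPM at 2 dpi and 55.2 to 110 at 5 dpi. It was 143 to 151 at 7 dpi and 51.5 to 55.5 at 14 dpi, so the order of the injured groups was not that of hk2. The part of neutrophils in the level of hk2 was not tested. On the cardiomyocyte-marker scale the difference at 5 dpi was -2.18 (adjusted p = 2.8e-05).

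pdk2b had 214 and 206 scaled CPM in untouched mutants, 175 and 190.1 at 2 dpi, 948 and 1003 at 5 dpi, 281 and 278 at 7 dpi and 158 and 270.0 at 14 dpi. Its peak at 5 dpi stood above every other mutant library (log2 2.21 ± 0.23, adjusted p = 1.5e-06 against untouched; 2.33 on the cardiomyocyte-marker scale). Smaller changes at 5 dpi were those of eno3 (log2 0.57 ± 0.18, adjusted p = 0.016), ldha, the lactate dehydrogenase A chain (log2 0.56 ± 0.21, adjusted p = 0.036), and aldocb, an aldolase (log2 -0.57 ± 0.15, adjusted p = 0.0053). None of these was called with the pairs averaged (adjusted p = 0.11, 0.17 and 0.060). The call of eno3 ended without mutant untouched library 1 (log2 0.55), mutant untouched library 2 (log2 0.59) or mutant 5 dpi library 2 (log2 0.52). That of ldha ended without any of the 4 libraries compared (log2 0.47 to 0.64), and that of aldocb without mutant 5 dpi library 1 (log2 -0.43). The call of dlat, the E2 subunit of pyruvate dehydrogenase (log2 -0.53 ± 0.15, adjusted p = 0.0068), ended with the pairs averaged (adjusted p = 0.066).

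At 14 dpi the mutant enzymes were lower again. Against untouched mutants 13 glycolysis and 14 TCA or pyruvate dehydrogenase enzymes were lower and none was higher, with medians of -0.45 and -0.54 (39.4% of all genes called, 18.2% lower). Of the enzymes that were lower at 2 dpi, 14 of the TCA and pyruvate dehydrogenase group and 7 of glycolysis were lower at 14 dpi as well, in comparisons that share the untouched libraries. The share of all genes called lower at both times was not counted. gapdh had 8574 and 6685 scaled CPM at 14 dpi against 16779.7 and 16883 untouched (log2 -1.15 ± 0.21, adjusted p = 0.00041), and gapdhs 826 and 501 against 1136 and 1187 (log2 -0.85 ± 0.16, adjusted p = 0.00072). The groups did not overlap in either gene. suclg1 changed by log2 -0.76 ± 0.13 (adjusted p = 0.00036), mitochondrial malate dehydrogenase mdh2 by log2 -0.77 ± 0.16 (adjusted p = 0.0016) and fumarase fh by log2 -0.67 ± 0.15 (adjusted p = 0.0018). The count was 16 without mutant 14 dpi library 2 and, with the pairs averaged, 7 (19.8% of all genes). On the cardiomyocyte-marker scale 7 enzymes were lower and 1 higher (25.7%), with CPM as deposited 19 and 3, and with quantile normalization 15 and 2. Against 7 dpi, 5 enzymes were lower and 1 higher (23.3% of all genes called), and none with the pairs averaged (4.43%). That count was 16 without either wild-type 2 dpi library, 14 without mutant 14 dpi library 1, and 1 and 0 without mutant 7 dpi library 1 and 2. It was 1 higher and 1 lower on the cardiomyocyte-marker scale (11.8% of all genes) and 2 higher and 5 lower with quantile normalization.

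**Figure D3:**
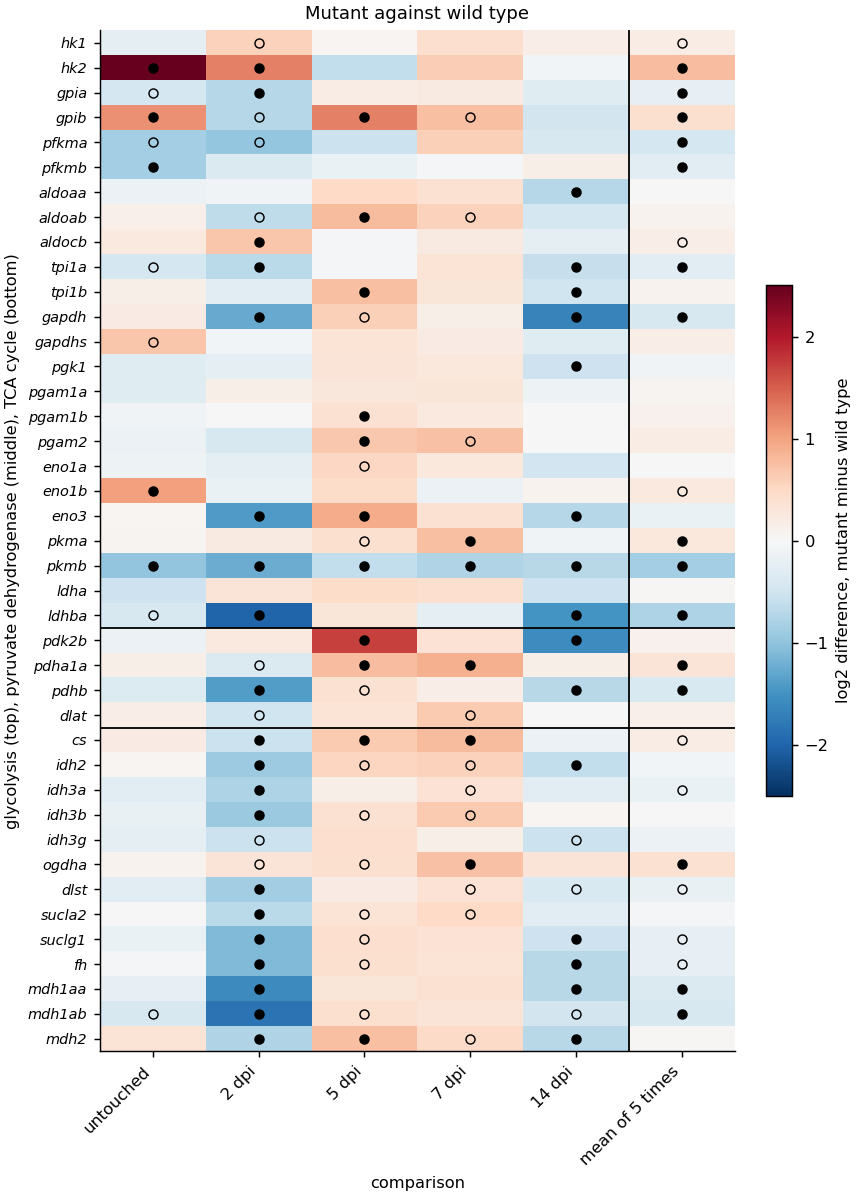
Log2 difference of mutant from wild type for 41 enzymes (rows) untouched, at 2, 5, 7 and 14 dpi and as the mean of the 5 times (columns), by colour, with dots as in the plot by time. The TCA rows are mostly lower in mutants at 2 and 14 dpi and mostly higher at 5 and 7 dpi, while pkmb is lower in every column.

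In untouched mutants the share of glycolysis enzymes called against untouched wild type was near that of all genes. In the pyruvate dehydrogenase and TCA group 1 enzyme was called. Of 24 glycolysis enzymes 4 were higher in mutants (hk2, eno1b, gpib and gapdhs) and 6 lower, and of 17 TCA or pyruvate dehydrogenase enzymes 1, mdh1ab, was lower (log2 -0.40 ± 0.15, adjusted p = 0.047). Of all genes, 40.1% were called. hk2 was log2 2.65 ± 0.27 (adjusted p = 1.8e-06) higher in mutants, with the levels given above and no overlap. eno1b had 10.2 and 9.95 scaled CPM in mutants against 4.35 and 4.58 in wild type (log2 1.02 ± 0.18, adjusted p = 0.00029), and gpib 770.4 and 753 against 262 and 456 (log2 1.14 ± 0.25, adjusted p = 0.0015). In the other direction pkmb had 65.8 and 67.2 against 122 and 146 (log2 -0.99 ± 0.14, adjusted p = 5.1e-05) and pfkmb 492 and 505 against 844 and 965 (log2 -0.85 ± 0.15, adjusted p = 0.00036). The groups did not overlap in any of these genes. The call of gpia (log2 -0.44 ± 0.13, adjusted p = 0.013) ended without wild-type untouched library 2 (log2 -0.36), mutant untouched library 1 (log2 -0.43) or mutant untouched library 2 (log2 -0.46), and that of mdh1ab ended in 12 of the 20 fits that leave out 1 library each (log2 -0.42 to -0.38). With the pairs averaged 3 enzymes were higher and 2 lower (21.2% of all genes), leaving hk2, eno1b, gpib, pkmb and pfkmb. The count was 7 without wild-type untouched library 2 or mutant untouched library 1 and 6 without mutant untouched library 2. On the cardiomyocyte-marker scale 4 were higher and 3 lower (22.3% of all genes). In the same comparison the neutrophil markers differed as given above, the 13 macrophage markers summed to 905 to 907 in mutants against 431 to 435 in wild type, and the 7 erythrocyte markers to 2427 to 2471 against 7688 to 7845. Their part in these differences was not tested.

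At 2 dpi nearly all TCA and pyruvate dehydrogenase enzymes were lower in mutants than in wild type. Of 17 enzymes 15 were lower, and ogdha alone was higher (log2 0.32 ± 0.13, adjusted p = 0.045), while of 24 glycolysis enzymes 9 were lower and 3 higher, hk1, hk2 and aldocb. The medians were -0.78 and -0.26, where 57.7% of all genes were called (30.3% lower). mdh1ab had 40.6 and 42.9 scaled CPM in mutants and 121 and 191 in wild type (log2 -1.84 ± 0.15, adjusted p = 1.1e-07). ldhba had 293 and 292 against 1013 and 1353 (log2 -2.0 ± 0.13, adjusted p = 1.6e-08), and pkmb 33.8 and 29.8 against 66.3 and 86.9 (log2 -1.23 ± 0.14, adjusted p = 3.2e-06). In all 3 genes both mutant libraries were below both wild-type ones. pdhb (log2 -1.39 ± 0.14, adjusted p = 7.2e-07), mdh1aa (log2 -1.58 ± 0.16, adjusted p = 6.7e-07) and eno3 (log2 -1.42 ± 0.18, adjusted p = 7.8e-06) were lower as well. hk2 was higher (log2 1.25 ± 0.27, adjusted p = 0.00092), as was aldocb (log2 0.69 ± 0.15, adjusted p = 0.0011). The call of hk1 (log2 0.57 ± 0.17, adjusted p = 0.0077) ended without wild-type 2 dpi library 1 (log2 0.42) and with the pairs averaged (adjusted p = 0.070), and that of ogdha ended with the pairs averaged (adjusted p = 0.20) and in 11 fits that leave out 1 library each (log2 0.16 to 0.34). Averaging the pairs gave 18 enzymes lower and 2 higher (41.6% of all genes), and on the cardiomyocyte-marker scale 14 and 7 (46.4%). Here too the mutant libraries were those of lane 7, so genotype and lane cannot be told apart.

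At 5 dpi the direction was the reverse, with mutants higher than wild type. Of glycolysis 9 enzymes were higher and 1, pkmb, was lower (log2 -0.61 ± 0.14, adjusted p = 0.0036), and of the TCA and pyruvate dehydrogenase group 12 were higher and none lower, with medians of 0.36 and 0.40 (38.6% of all genes called, 19.1% higher). pdk2b had 948 and 1003 scaled CPM in mutants and 266 and 332 in wild type (log2 1.71 ± 0.23, adjusted p = 5.5e-05). gpib had 744 and 714 against 279 and 328 (log2 1.27 ± 0.25, adjusted p = 0.00087), and pdha1a 1135 and 1070.5 against 597 and 689.5 (log2 0.78 ± 0.12, adjusted p = 0.00019). The mutant libraries were above the wild-type ones in each. tpi1b (log2 0.75 ± 0.12, adjusted p = 0.00026), eno3 (log2 0.93 ± 0.18, adjusted p = 0.0010) and cs (log2 0.66 ± 0.13, adjusted p = 0.0013) were also higher. The cardiomyocyte markers summed higher in mutants than in wild type at this time, as given above. On their scale 11 enzymes were higher and 1 lower (19.7% of all genes), and with the pairs averaged 10 and 1 (30.2%). The count of 22 was 9 without wild-type 5 dpi library 1 and 10 without mutant 5 dpi library 1.

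At 7 dpi the same direction held for the TCA cycle, with fewer glycolysis calls. In this comparison 10 TCA or pyruvate dehydrogenase enzymes were higher in mutants and none lower, and 4 glycolysis enzymes were higher and 1 lower (27.2% of all genes called, 13.1% higher). pdha1a had 1068 and 1071 scaled CPM in mutants and 573 and 581 in wild type (log2 0.89 ± 0.12, adjusted p = 0.00011), and cs 961 and 972 against 499.6 and 615 (log2 0.80 ± 0.13, adjusted p = 0.00049). The pyruvate kinases moved apart, pkma with 1758 and 1717 against 1118 and 957 (log2 0.75 ± 0.14, adjusted p = 0.0010) and pkmb with 65.0 and 68.3 against 113 and 112 (log2 -0.75 ± 0.14, adjusted p = 0.0014). In these 4 genes the genotypes did not overlap. ogdha was higher (log2 0.74 ± 0.13, adjusted p = 0.00070). The call of pgam2 (log2 0.74 ± 0.18, adjusted p = 0.0058) ended without wild-type 7 dpi library 1 (log2 0.51), and that of aldoab, an aldolase (log2 0.58 ± 0.17, adjusted p = 0.021), without any of the 4 libraries compared (log2 0.51 to 0.64). With the pairs averaged 4 were higher (pkma, pdha1a, cs and ogdha) and pkmb was lower (7.75% of all genes). On the cardiomyocyte-marker scale 1 was higher and 3 lower (39%). The count of 15 was 7 without wild-type 7 dpi library 1, 9 without mutant 7 dpi library 1 and 8 without mutant 7 dpi library 2.

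At 14 dpi the mutants were below wild type again. In all 8 glycolysis and 10 TCA or pyruvate dehydrogenase enzymes were lower and none was higher (31% of all genes called). gapdh had 8574 and 6685 scaled CPM in mutants and 28154 and 20839 in wild type (log2 -1.68 ± 0.21, adjusted p = 2.7e-05). ldhba had 877 and 711 against 2346 and 2125 (log2 -1.50 ± 0.13, adjusted p = 2.7e-06), and pdk2b 158 and 270.0 against 737 and 517 (log2 -1.58 ± 0.23, adjusted p = 0.00014). All mutant libraries were below all wild-type ones in these genes. pkmb (log2 -0.70 ± 0.14, adjusted p = 0.0018), pdhb (log2 -0.70 ± 0.14, adjusted p = 0.0014) and fh (log2 -0.68 ± 0.15, adjusted p = 0.0022) were lower as well. The count of 18 was 8 without wild-type 14 dpi library 1 and 11 without mutant 14 dpi library 2, and 15 with the pairs averaged (22.9% of all genes). It was 5 lower and 3 higher on the cardiomyocyte-marker scale (23.6%), 14 and 4 with CPM as deposited, and 13 and 4 with quantile normalization.

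**Figure D4:**
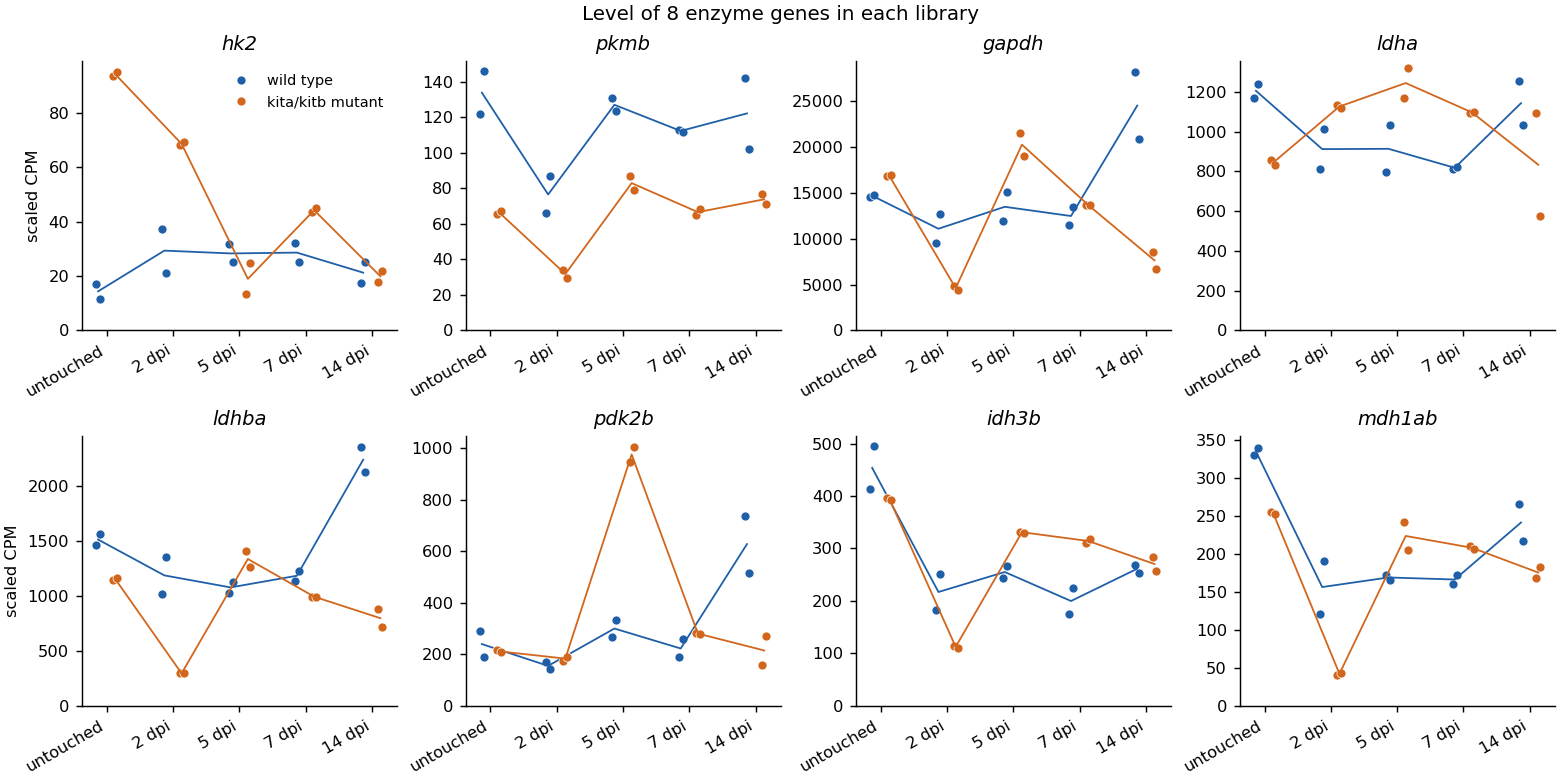
Scaled CPM of hk2, pkmb, gapdh, ldha, ldhba, pdk2b, idh3b and mdh1ab by days post injury in wild type and mutants. Points are libraries and lines join group means; hk2 is highest in untouched mutants and pkmb is lower in mutants at every time.

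Averaged over the 5 times, pkmb and ldhba had the smallest adjusted p of the enzymes. On this mean 6 glycolysis enzymes were higher in mutants and 7 lower, and 3 TCA or pyruvate dehydrogenase enzymes were higher and 7 lower (57.2% of all genes called). pkmb differed by log2 -0.86 ± 0.06 (adjusted p = 2.9e-08) and was the single enzyme lower in mutants at all 5 times. ldhba differed by log2 -0.77 ± 0.06 (adjusted p = 4.1e-08), although at 5 dpi its levels were 1404 and 1261 scaled CPM in mutants and 1025 and 1123 in wild type (log2 0.31 ± 0.13, adjusted p = 0.077). hk2 (log2 0.77 ± 0.12, adjusted p = 5.8e-05), ogdha (log2 0.37 ± 0.06, adjusted p = 5.2e-05) and pdha1a (log2 0.32 ± 0.06, adjusted p = 0.00014) were higher on average, and pdhb (log2 -0.38 ± 0.06, adjusted p = 9.5e-05) and mdh1ab (log2 -0.39 ± 0.07, adjusted p = 0.00014) lower. Averaging the pairs gave 5 enzymes higher and 10 lower (44.3% of all genes), and on the cardiomyocyte-marker scale 7 and 13 (41.2%).

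The difference of the 2 responses to injury, mutant minus wild type, tests whether the genotypes changed unequally. It also holds the difference between the untouched groups, where hk2 and eno1b were higher and pfkmb lower in mutants, as given above. At 2 dpi 14 TCA or pyruvate dehydrogenase enzymes and 8 of glycolysis had a negative difference, a lower response in mutants, and 2 of glycolysis had a positive difference (40.9% of all genes called). Those with the smallest adjusted p were ldhba (log2 -1.61 ± 0.19, adjusted p = 1.2e-05), mdh1ab (log2 -1.44 ± 0.22, adjusted p = 9.1e-05) and mdh1aa (log2 -1.37 ± 0.22, adjusted p = 0.00019). At 5 dpi 10 glycolysis and 7 TCA or pyruvate dehydrogenase enzymes had a positive difference and 1, hk2, a negative one (log2 -3.26 ± 0.38, adjusted p = 2.0e-05; 34.9% of all genes called). At 7 dpi 15 were positive and 2, hk2 and eno1b, negative (18.8%). At 14 dpi 1, pfkmb, was positive (log2 1.00 ± 0.22, adjusted p = 0.0022) and 12 negative, led by hk2 (log2 -2.73 ± 0.38, adjusted p = 6.4e-05) and gapdh (log2 -1.88 ± 0.29, adjusted p = 0.00015; 33.2%). In the fit with averaged pairs the counts were 11 negative at 2 dpi, 1 positive (pdk2b) and 1 negative (hk2) at 5 dpi, 0 at 7 dpi (17 with both libraries kept) and 1 positive and 7 negative at 14 dpi, where 19.1%, 17.0%, 3.84% and 19.8% of all genes were called. The count of 18 at 5 dpi was 5 without wild-type 5 dpi library 1, 7 without wild-type untouched library 2, 9 without mutant 5 dpi library 1 or mutant untouched library 2, and 10 without mutant untouched library 1. The count of 17 at 7 dpi was 5 without mutant 7 dpi library 1, 6 without wild-type untouched library 2 or mutant untouched library 2, and 7 without wild-type 7 dpi library 1, mutant untouched library 1 or mutant 7 dpi library 2. On the cardiomyocyte-marker scale the positive and negative counts were 6 and 11 at 2 dpi (26.2% of all genes), 3 and 1 at 5 dpi (13.8%), 0 and 4 at 7 dpi (16.1%), and 2 and 6 at 14 dpi (21.7%). CPM as deposited gave 13 and 3 at 5 dpi and 5 and 10 at 14 dpi, and quantile normalization 6 and 24 at 2 dpi, 13 and 3 at 5 dpi and 3 and 10 at 14 dpi.

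The log2 difference within 11 pairs of paralogues that catalyse the same step was compared between genotypes and between injured and untouched hearts. The scaling of a library enters these balances only through the 1 added to each value. The pyruvate kinase pair changed with genotype. The log2 of pkma minus pkmb was 4.59 ± 0.01 (SD, n = 2) in untouched mutants and 3.53 ± 0.10 in untouched wild type, and 4.68 ± 0.07 and 3.19 ± 0.14 at 7 dpi. Over all times the balance was 1.13 higher in mutants (two-sided exact permutation test within times, p = 0.000257, adjusted p = 0.00566 over 22 tests). The difference between the ldha and ldhba chains was 0.80 higher in mutants (exact permutation test, p = 0.00412, adjusted p = 0.0453), and that of tpi1a and tpi1b 0.36 lower (exact permutation test, p = 0.00669, adjusted p = 0.0490). Neither was even over time. In mutants and wild type, ldha minus ldhba was -0.44 and -0.32 untouched and 1.94 and -0.37 at 2 dpi. It was -0.10 and -0.24 at 5 dpi, 0.15 and -0.53 at 7 dpi and 0.006 and -0.97 at 14 dpi. For tpi1a minus tpi1b it was -7.03 and -6.46 untouched, -7.14 and -6.73 at 2 dpi and -7.22 and -6.43 at 5 dpi. It was -6.98 and -7.01 at 7 dpi and -6.72 and -6.65 at 14 dpi. The p of the pyruvate kinase pair, 0.000257, is the smallest that this two-sided exact permutation test between genotypes can give. The balances of gpia with gpib (-0.62) and of gapdh with gapdhs (-0.57) did not pass (exact permutation test, adjusted p = 0.0577 for both). None of the 11 balances passed between injured and untouched hearts. At an unadjusted p under 0.05 were aldoaa with aldoab, pgam1a with pgam2 and mdh1aa with mdh1ab (exact permutation test, p = 0.0336, 0.0484 and 0.0361). With the near-identical pairs averaged, an alternative added after the data were seen, the pyruvate kinase balance still passed (1.12 higher in mutants, exact permutation test, adjusted p = 0.0226), while those of ldha with ldhba and of tpi1a with tpi1b did not (exact permutation test, adjusted p = 0.083 and 0.083). Only the pyruvate kinase pair passed without wild-type untouched library 2, wild-type 7 dpi library 2, wild-type 14 dpi library 2, mutant untouched library 1, mutant 5 dpi library 2, either mutant 7 dpi library or mutant 14 dpi library 1, a count of 1 in place of 3.

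**Figure D5:**
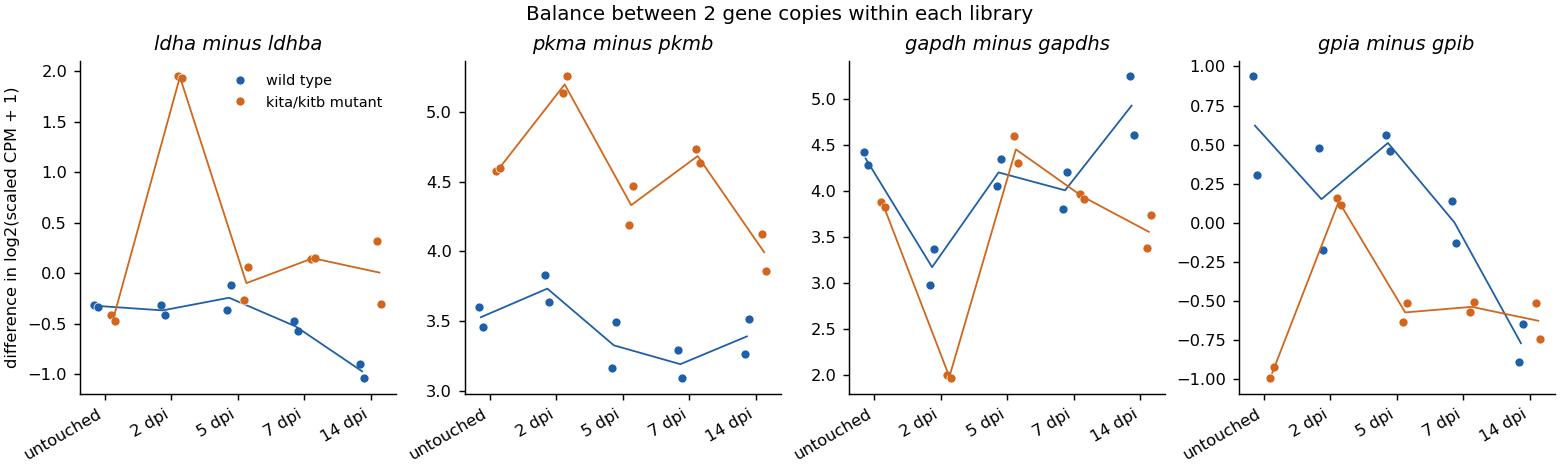
Log2 difference within 4 paralogous pairs (ldha minus ldhba, pkma minus pkmb, gapdh minus gapdhs and gpia minus gpib) by days post injury in wild type and mutants. Points are libraries and lines join group means; the pkma minus pkmb balance of mutants lies above that of wild type at every time.

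The enzymes differed in how far they ranged over the 20 libraries. The ratio of the highest to the lowest library was 8.60 for pfkma, 8.37 for mdh1ab, 8.15 for hk2, 8.05 for ldhba and 7.16 for pdk2b. It was 1.63 for pgam1b, 1.85 for pkma and 1.89 for aldocb. For 27 of the 41 enzymes the lowest library was 1 of the mutant 2 dpi pair. The share of all genes with their lowest library in that pair was not counted.

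The Notch ligand dld was expressed at 4.11 to 8.95 scaled CPM in wild type and 1.32 to 4.86 in mutants, with a mean difference of log2 -1.12 ± 0.08 (adjusted p = 2.9e-08). The dihydrolipoamide dehydrogenase dldh, which is shared by the pyruvate and 2-oxoglutarate dehydrogenase complexes and is not on the list, had 557 and 633 scaled CPM in untouched wild type and 289 and 387 at 2 dpi, and in mutants 500.5 and 499 untouched and 215 and 226 at 2 dpi. It fell in both genotypes, by log2 -0.83 ± 0.13 (adjusted p = 5.1e-05) and log2 -1.18 ± 0.13 (adjusted p = 9.0e-07), and at 2 dpi was lower in mutants (log2 -0.60 ± 0.13, adjusted p = 0.00069). On the cardiomyocyte-marker scale the fall in mutants was called (log2 -0.38). The fall in wild type (log2 -0.35) and the difference between genotypes at 2 dpi (log2 -0.26) were not called on that scale.

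Other genes of these pathways were counted in lists drawn up by name. Of 17 other TCA and anaplerotic genes, 12 were lower and 1 higher in wild type at 2 dpi and 14 and 2 in mutants, where 51.6% and 52.4% of all genes were called. These counts became 12 lower and 1 higher with the pairs averaged and 3 and 1 on the cardiomyocyte-marker scale in wild type, and 11 lower and 2 higher with the pairs averaged and 6 and 2 on the cardiomyocyte-marker scale in mutants. Between genotypes at 2 dpi 8 were lower and 1 higher in mutants. Of all genes, 30.3% were lower and 27.3% higher (57.7% called). The list counts became 5 lower and 1 higher with the pairs averaged (41.6% of all genes) and 3 and 1 on the cardiomyocyte-marker scale (46.4%). The aspartate aminotransferase got2a of the malate-aspartate shuttle fell in both (-1.13 ± 0.14 and -1.72 ± 0.14). Of 8 transporters of glucose, lactate and pyruvate, 5 were lower and 1 higher in wild type at 2 dpi and 4 and 1 in mutants. Of all genes, 51.6% and 52.4% were called in these comparisons. In wild type they became 4 lower and 1 higher with the pairs averaged and 2 and 1 on the cardiomyocyte-marker scale, and in mutants 2 lower and 0 higher with the pairs averaged and 2 and 3 on the cardiomyocyte-marker scale. The mitochondrial pyruvate carrier subunit mpc2 had 82.9 and 138 scaled CPM in wild type at 2 dpi and 28.4 and 34.4 in mutants (log2 -1.74 ± 0.18, adjusted p = 7.4e-07). Of 4 other genes of the pyruvate dehydrogenase step, 3 were lower at 2 dpi in each genotype. Of all genes, 25.2% were lower in wild type and 24.9% in mutants. The 3 included the kinase pdk4 (-1.32 ± 0.13 in wild type and -1.43 ± 0.13 in mutants). Those counts became 2 lower and 0 higher with the pairs averaged and 2 and 0 on the cardiomyocyte-marker scale in wild type, and 3 lower and 0 higher with the pairs averaged and 2 and 0 on the cardiomyocyte-marker scale in mutants. With the pairs averaged, 45.4% of all genes were called in wild type at 2 dpi and 29.2% in mutants. On the cardiomyocyte-marker scale these shares were 46.6% and 66.1%.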

How the data were processed

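The authors deposited 1 matrix of CPM (reads scaled to a fixed total per library) for 14781 genes in 20 libraries, 2 per group. The matrix held 3 further lines that named no gene, and these were dropped. Per the submitters' processing notes FastQC, featureCounts and danRer10 were used, with no versions. The aligner is not named in the sources used. Reads per library (14604835 to 31689067) were read back from the CPM steps: in every column 100% of values were whole multiples of 1 read, to within 0.1.

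For the analysis each library was rescaled by its median ratio over 11000 genes above 0 in all libraries (factors 0.881 to 1.18). The 10914 genes, of 13956 above 0, that reached 1 CPM in 2 libraries were fitted on log2(scaled CPM + 1), a scale that understates changes of low genes. The fit was limma 3.58.1 with a trend, in R 4.3.3, with a mean for each of the 10 groups (residual degrees of freedom 10, total 16.2) and 20 two-sided contrasts. P-values were Benjamini-Hochberg adjusted over all genes tested. For 11 paralogous pairs of the 14 planned, those with both genes tested, balances were compared by exact permutation tests with adjustment over 22 tests (Python 3.11.15, numpy 2.4.6, pandas 2.3.3). Libraries of a group were taken as near-identical where chi-square averaged under 10 per gene. Both procedures were tested on simulated data.

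The members, lists and tests were chosen with earlier results of these data known. In each time and genotype contrast the text names up to 3 enzymes of either group and direction by smallest adjusted p, and members of paralogous pairs, and up to 3 genes of each further list. Others, dld and dldh included, were chosen after their values were seen. Alternatives were the deposited CPM, TMM or quantile scaling, other filters (none, or CPM 5), another pseudocount (0.25), the replicate number as a block, single-genotype fits, averaged near-identical pairs, recovered reads in edgeR 4.0.16 (quasi-likelihood test) and DESeq2 1.42.0, and omission of each library. The cardiomyocyte-marker scaling, the count with dld and averaged pairs in the genotype balances were added after seeing the data. One label field gives another day for the 14 dpi samples; the titles' 14 was used. Some single-gene results are left out of the text.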

Additional observations from a re-analysis of the deposited data

Results flagged for a closer look

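Some enzymes responded to injury differently in mutants and wild type in a test of the difference itself, with both libraries of each group and also with the near-identical mutant pairs averaged. All values are log2 differences of responses, mutant minus wild type, from limma. At 2 dpi the mutants were lower by this measure for ldhba (-1.61 ± 0.19, adjusted p = 1.2e-05), eno3 (-1.46 ± 0.26, adjusted p = 0.00037), gapdh (-1.45 ± 0.29, adjusted p = 0.0010), gpib (-1.84 ± 0.35, adjusted p = 0.00060) and eno1b (-1.19 ± 0.25, adjusted p = 0.0015) in glycolysis. Among the pyruvate dehydrogenase and TCA enzymes the same held for mdh1ab (-1.44 ± 0.22, adjusted p = 9.1e-05), mdh1aa (-1.37 ± 0.22, adjusted p = 0.00019), pdhb (-1.04 ± 0.20, adjusted p = 0.00065), fh (-1.06 ± 0.21, adjusted p = 0.00075), suclg1 (-0.95 ± 0.19, adjusted p = 0.00094) and mdh2 (-1.09 ± 0.23, adjusted p = 0.0015).

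At 5 dpi the response of hk2 differed by -3.26 ± 0.38 (adjusted p = 2.0e-05), that of pdk2b by 1.86 ± 0.33 (adjusted p = 0.00063) and that of the Notch ligand dld by -0.93 ± 0.27 (adjusted p = 0.013). The call of dld ended without wild-type 5 dpi library 2 (log2 -0.81). At 14 dpi the differences were -2.73 ± 0.38 for hk2 (adjusted p = 6.4e-05), -1.88 ± 0.29 for gapdh (adjusted p = 0.00015), -1.59 ± 0.35 for gpib (adjusted p = 0.0022), -1.11 ± 0.19 for ldhba (adjusted p = 0.00031), -1.0 ± 0.23 for gapdhs (adjusted p = 0.0033), -1.43 ± 0.33 for pdk2b (adjusted p = 0.0035) and -1.04 ± 0.23 for mdh2 (adjusted p = 0.0025). The difference of pfkmb had the other sign, 1.00 ± 0.22 (adjusted p = 0.0022). A difference of responses also holds the difference between the untouched groups. In untouched mutants hk2, eno1b, gpib and gapdhs were higher and pfkmb lower than in untouched wild type, as given above. At 14 dpi the hk2 libraries of the genotypes overlapped. Scaled to the cardiomyocyte markers, eno1b at 2 dpi (log2 -0.87, adjusted p = 0.081) and gapdhs at 14 dpi (log2 -0.72, adjusted p = 0.072) were not called. At 7 dpi none was called with the pairs averaged. The labels name no sequencing run, and genotype may coincide with run in any of these values. Those of 2 dpi also hold the difference in lane between the mutant 2 dpi libraries and all others.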

How the results depend on the processing

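Counts below are enzymes called of 41, with the count under the settings of the report in brackets, by wild type or mutant at a time against untouched of the same genotype unless 7 dpi is named, by genotype difference at a time, or by difference of responses. Scaled to cardiomyocyte markers, the counts that moved were 12 (32) for wild type at 2 dpi, 7 (25) for wild type at 5 dpi, 12 (32) for wild type at 7 dpi, 7 (22) for wild type from 7 to 14 dpi, 0 (2) for mutant at 7 dpi, 8 (27) for mutant at 14 dpi, 2 (6) for mutant from 7 to 14 dpi, 7 (11) for untouched genotype difference, 12 (22) for genotype difference at 5 dpi, 4 (15) for genotype difference at 7 dpi, 8 (18) for genotype difference at 14 dpi, 4 (18) for difference of responses at 5 dpi, 4 (17) for difference of responses at 7 dpi and 8 (13) for difference of responses at 14 dpi. Fitted in each genotype alone, the counts that moved were 7 (13) for wild type at 14 dpi, 6 (22) for wild type from 7 to 14 dpi, 13 (2) for mutant at 7 dpi and 17 (6) for mutant from 7 to 14 dpi. With the near-identical pairs averaged, the counts that moved were 7 (13) for wild type at 14 dpi, 2 (8) for mutant at 5 dpi, 0 (2) for mutant at 7 dpi, 7 (27) for mutant at 14 dpi, 0 (6) for mutant from 7 to 14 dpi, 5 (11) for untouched genotype difference, 11 (22) for genotype difference at 5 dpi, 5 (15) for genotype difference at 7 dpi, 15 (23) for the mean genotype difference, 11 (24) for difference of responses at 2 dpi, 2 (18) for difference of responses at 5 dpi, 0 (17) for difference of responses at 7 dpi, 8 (13) for difference of responses at 14 dpi and 1 (3) for pair balances between genotypes. With CPM as deposited, the counts that moved were 14 (8) for mutant at 5 dpi, 11 (6) for mutant from 7 to 14 dpi and 14 (22) for genotype difference at 5 dpi. With quantile normalization, the counts that moved were 14 (8) for mutant at 5 dpi, 1 (2) for mutant at 7 dpi, 17 (27) for mutant at 14 dpi and 14 (22) for genotype difference at 5 dpi. Without a filter, mutant at 7 dpi gave 1 (2). With DESeq2 on the recovered reads, mutant from 7 to 14 dpi gave 11 (6). Leaving out each library in turn gave 25 to 35 for wild type at 2 dpi, 10 to 29 for wild type at 5 dpi, 22 to 33 for wild type at 7 dpi, 5 to 17 for wild type at 14 dpi, 3 to 27 for wild type from 7 to 14 dpi, 27 to 33 for mutant at 2 dpi, 4 to 12 for mutant at 5 dpi, 0 to 5 for mutant at 7 dpi, 16 to 30 for mutant at 14 dpi, 0 to 16 for mutant from 7 to 14 dpi, 6 to 16 for untouched genotype difference, 23 to 30 for genotype difference at 2 dpi, 9 to 28 for genotype difference at 5 dpi, 7 to 19 for genotype difference at 7 dpi, 8 to 23 for genotype difference at 14 dpi, 21 to 27 for the mean genotype difference, 17 to 27 for difference of responses at 2 dpi, 5 to 23 for difference of responses at 5 dpi, 5 to 22 for difference of responses at 7 dpi and 9 to 18 for difference of responses at 14 dpi. The pair balances that passed between genotypes numbered 1 to 4, and between injured and untouched 0 to 0. Samples of 1 replicate number did not deviate together (3 of 45 correlations over 0.1, range -0.293 to 0.143). This cannot show whether libraries of the same number were paired in preparation, and the labels give no pairing. With the replicate block the counts were 31 for wild type at 2 dpi, 24 for wild type at 5 dpi, 30 for wild type at 7 dpi, 13 for wild type at 14 dpi, 22 for wild type from 7 to 14 dpi, 30 for mutant at 2 dpi, 7 for mutant at 5 dpi, 2 for mutant at 7 dpi, 26 for mutant at 14 dpi, 4 for mutant from 7 to 14 dpi, 9 for untouched genotype difference, 27 for genotype difference at 2 dpi, 21 for genotype difference at 5 dpi, 13 for genotype difference at 7 dpi, 18 for genotype difference at 14 dpi, 23 for the mean genotype difference, 24 for difference of responses at 2 dpi, 17 for difference of responses at 5 dpi, 17 for difference of responses at 7 dpi and 12 for difference of responses at 14 dpi, all within 1.5 times of those without it. Among 419 single results there were 28 changes of sign. On the cardiomyocyte-marker scale, chosen after seeing the data, they were to these log2 values: for wild type at 2 dpi gpia (0.10), tpi1b (0.0097), pgk1 (0.10), pgam1b (0.046) and ldhba (0.11); for wild type at 7 dpi pgam1b (0.18), ldhba (0.17) and mdh2 (0.034); for wild type from 7 to 14 dpi tpi1b (-0.14), pdha1a (-0.15), dlat (-0.095), idh3a (-0.10), ogdha (-0.13), dlst (-0.037), sucla2 (-0.10), suclg1 (-0.023) and mdh1ab (-0.047); for mutant at 2 dpi gpia (0.15), pfkmb (0.078), pgam1b (0.44), pkma (0.37), idh3g (0.13) and ogdha (0.15); for genotype difference at 7 dpi idh3a (-0.12), dlst (-0.13) and mdh2 (-0.0073). pgam1b in mutant at 2 dpi turned to 0.0026 with CPM as deposited, and pkma in the genotype difference at 5 dpi to -0.055 with quantile normalization. The cardiomyocyte-marker scaling divides all genes of a library by 1 factor, and the cause of the other moves was not tested. TMM, edgeR, the filter of CPM 5, the pseudocount of 0.25 and counting dld as a member moved no count by over 1.5 times, and of all 696 recomputed counts, those without 1 library included, 602 stayed within that range. Promoter motifs were not counted. With 2 libraries per group, near-identical mutant pairs and 1 lane label that covers 1 group, small differences between mutant groups rest on few independent samples.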

Other observations

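Lists of genes next to glycolysis, drawn up by name, were counted in the same way. The pentose phosphate pathway, which branches from glucose-6-phosphate, had 6 of 6 genes higher in wild type at 2 dpi and 0 lower, where 26.4% of all genes were higher. The transketolase tktb had 102 and 109 scaled CPM untouched and 187 and 169.6 at 2 dpi (limma, log2 0.75 ± 0.10, adjusted p = 1.4e-05), and the phosphogluconate dehydrogenase pgd had 61.9 and 61.4 and 107 and 105 (log2 0.77 ± 0.12, adjusted p = 4.3e-05). Both rose without overlap. The wild-type count was the same with the near-identical pairs averaged and on the cardiomyocyte-marker scale. In mutants at 2 dpi 2 of the 6 genes were higher and 2 lower, where 27.5% of all genes were higher and 24.9% lower. These counts became 1 lower and 2 higher with the pairs averaged and 0 and 4 on the cardiomyocyte-marker scale. The transaldolase taldo1 rose in wild type (log2 0.54 ± 0.12, adjusted p = 0.0011) and fell in mutants (log2 -0.86 ± 0.12, adjusted p = 1.2e-05).

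Of 6 pfkfb genes, 5 were lower in wild type at 2 dpi, where 25.2% of all genes were lower, and on the cardiomyocyte-marker scale 1 was. Between genotypes 2 were higher in mutants, a share near the 27.3% of all genes. pfkfb3 makes fructose 2,6-bisphosphate, an activator of phosphofructokinase. It had 154 and 148 scaled CPM in untouched wild type, 69.1 and 43.0 in wild type at 2 dpi and 384 and 398 in mutants at 2 dpi. The mutant libraries lay above the wild-type ones (log2 2.82 ± 0.19, adjusted p = 1.9e-08). Of 10 genes of the hypoxia response list, which also holds Myc genes, 9 were higher in mutants than in wild type at 2 dpi. None was lower, where 27.3% of all genes were higher. With the pairs averaged 6 of the 10 were higher, and on the cardiomyocyte-marker scale all 10 were. Among them the HIF prolyl hydroxylase egln3 had 142 and 143 scaled CPM in mutants and 17.7 and 19.2 in wild type (log2 2.88 ± 0.42, adjusted p = 2.4e-05). The gene hif1al of the same list differed by log2 1.42 ± 0.18 (adjusted p = 7.4e-06). Against untouched of the same genotype, 0 of the 10 were higher and 6 lower in wild type at 2 dpi. In mutants 2 were higher and 3 lower. Of all genes, 26.4% were higher and 25.2% lower in wild type and 27.5% and 24.9% in mutants. With the pairs averaged the counts were 0 and 6, and 2 and 2 (45.4% and 29.2% of all genes called). On the cardiomyocyte-marker scale they were 1 and 4, and 7 and 1 (46.6% and 66.1%). The mutant libraries of 2 dpi are those labelled with another lane and those with the lowest cardiomyocyte markers. The part of either in the differences that use these libraries was not tested.

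Of 16 glycogen genes, 10 were lower and 2 higher in wild type at 2 dpi and 9 and 3 in mutants, where 51.6% and 52.4% of all genes were called. The counts became 9 lower and 2 higher with the pairs averaged and 4 and 4 on the cardiomyocyte-marker scale in wild type, and 6 lower and 1 higher with the pairs averaged and 3 and 7 on the cardiomyocyte-marker scale in mutants. Of all genes at 2 dpi, 45.4% in wild type and 29.2% in mutants were called with the pairs averaged. On the cardiomyocyte-marker scale these shares were 46.6% and 66.1%. Between genotypes at 2 dpi they were 41.6% with the pairs averaged and 46.4% on the cardiomyocyte-marker scale. The glycogen phosphorylase pygl was lower in mutants averaged over the 5 times (log2 -1.79 ± 0.14, adjusted p = 3.9e-08), and the glycogen synthase gys1 was higher at 2 dpi (log2 1.08 ± 0.14, adjusted p = 7.8e-06). Of 10 further glycolysis isoforms and related enzymes, the bisphosphoglycerate mutase bpgm was higher in mutants averaged over the 5 times (log2 1.17 ± 0.08, adjusted p = 7.1e-09). Of 5 gluconeogenesis genes 2 were higher and 1 lower in wild type at 2 dpi, a share near that of all genes.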
